A study of Rattus norvegicus with 8 samples.

Results

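The genes described here are 37 genes of B cells, the lymphocytes that make antibodies, and of plasma cells, the antibody-secreting cells into which B cells mature. They were chosen by name, and 33 of the 37 had a row among the 17446 genes counted in whole blood of hypertensive rats. Cd79a, Hvcn1, Tnfrsf13c and Jchain were not analysed here. Of the 33 genes, 30 had enough counts to be tested in at least 1 comparison. Vpreb3, a surrogate light chain gene of B cell precursors, had 0 counts in all 8 libraries, and Ltb and Tnfrsf17 had too few counts to be tested.

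Blood came from male wild type Wistar rats, 12 to 14 weeks old at the start, with 2 libraries in each of 4 groups. In the AngII model, a subcutaneous minipump released human angiotensin II at 0.4 mg/kg/day, and blood was sampled at week 1 (AngII before) and at week 5, after 4 weeks of Chios mastic gum (CMG, 220 mg/kg by daily gavage; AngII after). The stated duration of the minipump was 4 weeks, so the sampling at week 5 came after it. In the DOCA–HS model, DOCA, a mineralocorticoid, was injected weekly at 100 mg/kg with 0.9% NaCl and 1% KCl in the drinking water, and blood was sampled at week 3 (DOCA–HS before) and at week 7, after the same 4 weeks of CMG (DOCA–HS after). Every group thus carried a hypertensive model, and no library of rats given saline in place of CMG was analysed here. CMG and the 4 further weeks of each model therefore cannot be told apart. The sources do not tie the replicate numbers to individual rats, and the p-values measure only the spread between these libraries.

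B cells recognise antigen through a surface immunoglobulin that signals through the Cd79a and Cd79b chains, and co-receptors such as Cd22 and Cr2 set how strongly the receptor responds. Pax5, Ebf1 and the octamer-binding proteins Pou2f2 and Pou2af1 keep the B cell gene programme active. Plasma cells switch to Irf4 and Xbp1, which drive antibody secretion, and blood holds far fewer plasma cells than B cells. In whole blood, a lower level of such a gene cannot tell fewer B cells from less RNA per B cell.

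The libraries held 4149104 to 13205565 counts, of which 61.9% to 84.3% lay on 2 hemoglobin genes. DOCA–HS after replicate 2 stood apart from the other libraries. It had the fewest counts outside hemoglobin (651764, against 2195735 to 4490083 in the other 7) and 2686 genes with at least 10 counts, against 6097 to 8280. Its detection limit of 3 counts corresponded to 2.11 normalized CPM (counts scaled to the library size by its TMM factor), against 0.166 to 0.507 in the others. Erythroid markers summed to 52406 CPM in it and to 14504 to 37416 CPM elsewhere, and platelet markers to 956 CPM against 59.3 to 615 CPM. The label of whole blood was matched by the presence of erythroid, T cell, monocyte and neutrophil markers in every library. Defining B lineage genes were present as well, with summed counts of the 14 B lineage genes between 74 in DOCA–HS after replicate 2 and 3033. For the DOCA–HS model, counts, medians and fold changes are given with and without DOCA–HS after replicate 2, where only after replicate 1 stands for the group.

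Promoters were examined for the octamer bound by Pou2f2 with its partner Pou2af1, since both proteins are among the genes described and many B cell genes are known to carry this element. RefSeq promoter sequences of GRCr8 were at hand for 25 of the 37 genes. The octamer ATGCAAAT was searched on both strands in the 250 bases before the start, and 2 of the 25 promoters (8.0%) held it, against 523 of 33469 promoters (1.56%) overall. They are shown because they are the ones with the octamer, Blnk at chr1:249770534-249770783 and Vpreb3 at chr20:12718227-12718476, both on the minus strand. The sequences run 5′ to 3′ towards the start, and capitals mark the octamer on the opposite strand, ATTTGCAT, which began 189 bases before the start in Blnk and 56 in Vpreb3. No other motif was searched.
Blnk: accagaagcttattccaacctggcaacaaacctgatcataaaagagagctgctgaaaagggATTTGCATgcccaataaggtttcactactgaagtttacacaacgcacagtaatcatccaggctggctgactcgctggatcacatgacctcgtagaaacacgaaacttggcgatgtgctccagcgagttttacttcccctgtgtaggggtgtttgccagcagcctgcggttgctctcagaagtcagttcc
Vpreb3: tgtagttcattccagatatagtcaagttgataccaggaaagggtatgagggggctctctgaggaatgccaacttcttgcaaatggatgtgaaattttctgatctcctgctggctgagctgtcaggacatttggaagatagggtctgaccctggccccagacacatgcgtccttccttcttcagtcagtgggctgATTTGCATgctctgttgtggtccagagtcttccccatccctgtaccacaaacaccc
The match is a description of these letters, and the reads were aligned to another build, rn6. Of the 2 genes, Blnk was expressed (2.67 to 5.77 CPM in the 8 libraries) and Vpreb3 was not detected.

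After CMG in the AngII model, most B cell and plasma cell genes lay above their level before CMG, by an amount that passed the criterion for 1 gene. Fold changes are given on the log2 scale, after against before, from edgeR's quasi-likelihood test over all genes. A gene passed where its log2 fold change was beyond 1.5 with an unadjusted p of at most 0.05, the thresholds of the study. Of 29 genes tested, 26 had a log2 fold change above 0, with a median of 0.40 and a range of -0.68 to 2.19. Over the 7201 genes tested, the median was -0.01 and 49.0% lay above 0. The gene that passed upwards was Cxcr5, and none passed downwards, against a background of 0.903% of all genes upwards and 0.333% downwards. No adjusted p of any of the 29 genes in edgeR's quasi-likelihood test was below 0.628. Of the 29 genes 3 had an unadjusted p of at most 0.05, against 479 of all 7201 genes. Leaving out AngII after replicate 2 ended the call of Cxcr5 and left the median at 0.10, with Blk at -1.74 and Pax5 at -2.09. The median was 0.26 without before replicate 1, 0.49 without before replicate 2 and 0.65 without after replicate 1.

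Cxcr5 encodes the chemokine receptor that guides B cells and follicular helper T cells into lymphoid follicles. Its level was 0.550 and 0.338 CPM in the AngII before libraries and 1.28 and 2.88 CPM in the AngII after libraries, from 7, 2, 8 and 39 counts. Both after libraries lay above both before libraries, although 3 of the 4 values rest on fewer than 10 counts. The log2 fold change was 2.19 (SE 0.65, n = 2 per group, adjusted p = 0.628 in edgeR's quasi-likelihood test). It was 2.54 without AngII after replicate 1, 2.64 without before replicate 1 and 1.93 without before replicate 2. Cxcr5 met the filter on low counts only through its after libraries, where it was higher, so the filter favoured this direction. Without AngII after replicate 2 the gene was too low to be tested.

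Of the other genes in the AngII model, Pou2f2 and Cd22 had the smallest p-values. Pou2f2, an octamer-binding activator of B cell genes, was at 2.67 and 2.87 CPM before CMG and at 6.08 and 4.81 CPM after it. Its groups did not overlap, and its log2 fold change was 0.98 (SE 0.32, adjusted p = 0.628). Cd22, a lectin that dampens the antigen receptor, was at 8.72 and 6.08 CPM before and at 10.9 and 15.7 CPM after CMG, again without overlap. Its log2 fold change was 0.85 (SE 0.34, adjusted p = 0.717). In all, both after libraries lay above both before libraries for 11 of the 29 genes, against 21.3% of all genes, and below both for 0 of 29, against 18.5%. The 11 genes were Btla, Cd22, Cxcr5, Irf4, Irf8, Ms4a1, Mzb1, Plcg2, Pou2f2, Ralgps2 and Xbp1. Mzb1, with 12 and 5 counts before and 8 and 21 after CMG, met the filter on low counts only through its after libraries. The filter thus favoured this direction for Mzb1 as it did for Cxcr5.

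**Figure D1:**
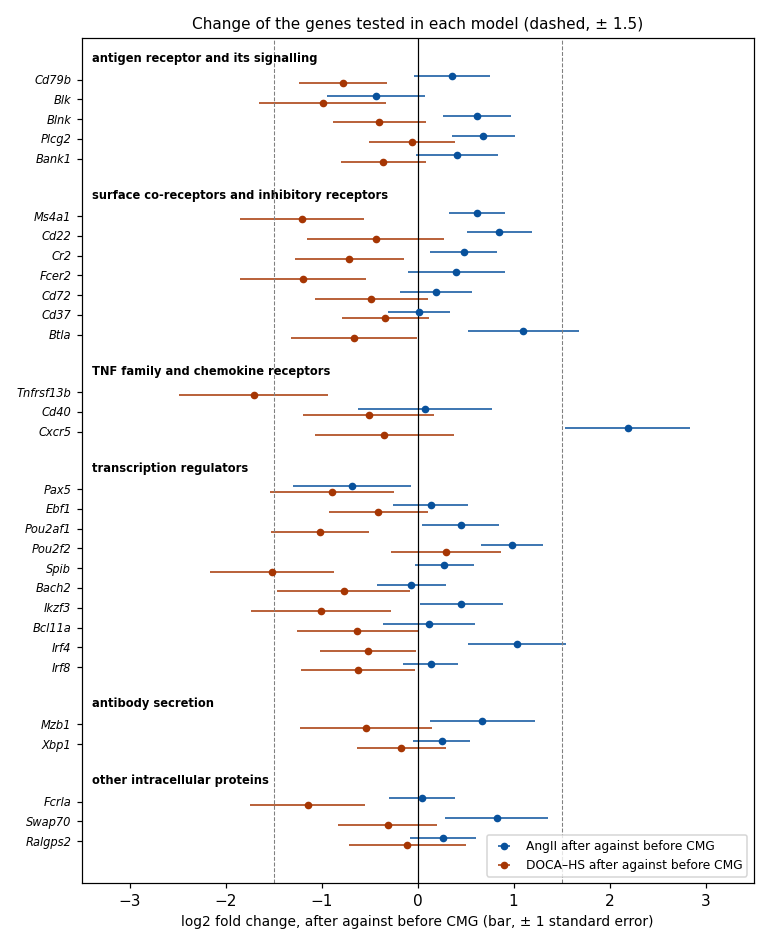
Log2 fold change after against before CMG of each gene tested in the AngII model (blue) and the DOCA–HS model (red), grouped by role, with bars of ± 1 standard error and dashed lines at the threshold of 1.5. Blue points lie mostly to the right of 0 (26 of 29 genes) and red points to the left (29 of 30), and 1 point of each colour lies beyond the threshold with a p of at most 0.05 (Cxcr5 and Spib).

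After CMG in the DOCA–HS model, nearly all of the genes lay below their level before CMG. Of 30 genes tested, 29 had a log2 fold change below 0, with a median of -0.58 and a range of -1.71 to 0.30. Over the 7720 genes tested, the median was -0.04 and 47.5% lay above 0. Spib passed downwards and no gene passed upwards, against a background of 0.259% of all genes downwards and 1.79% upwards, and the lowest adjusted p among the 30 genes was 0.997. Without DOCA–HS after replicate 2, the median was -0.37 and 24 of the 30 genes lay below 0, against 4295 of all 8366 genes tested. The log2 fold changes of the 30 genes then ranged from -1.49 to 0.67, short of the threshold of 1.5. Without DOCA–HS after replicate 1, DOCA–HS after replicate 2 alone stood for the group. The median was then -2.12, against -0.37 over all genes tested. It was -0.34 without before replicate 1 and -0.86 without before replicate 2.

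Spib encodes an Ets family factor that B cells and plasmacytoid dendritic cells need. It was at 21.1 and 14.3 CPM in the DOCA–HS before libraries and at 8.995 and 1.41 CPM in the after libraries, the last value from 2 counts. Both after libraries lay below both before libraries. The log2 fold change was -1.52 (SE 0.64, n = 2 per group, adjusted p = 0.997 in edgeR's quasi-likelihood test). Without DOCA–HS after replicate 2 it was -0.97 (adjusted p = 0.141), short of the threshold.

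Tnfrsf13b and Pou2af1 had the next smallest p-values in the DOCA–HS model. Tnfrsf13b (TACI) is a receptor for the survival factors BAFF and APRIL on B cells and plasma cells. It was at 2.05 and 1.38 CPM before CMG and at 0.615 and 0 CPM after it, from 37, 13, 8 and 0 counts, and the groups did not overlap. Within DOCA–HS it met the filter on low counts only through the before libraries, where it was higher. Its log2 fold change was -1.71 (SE 0.77, adjusted p = 0.997), and -1.49 (adjusted p = 0.388) without DOCA–HS after replicate 2. Pou2af1, the co-activator that joins octamer-binding proteins in B cells, was at 15.1 and 12.9 CPM before and at 8.92 and 3.52 CPM after CMG. Its log2 fold change was -1.02 (SE 0.51, adjusted p = 0.997), and -0.64 without DOCA–HS after replicate 2.

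Both DOCA–HS after libraries lay below both before libraries for 15 of the 30 genes, against 21.1% of all genes, and above both for 0 of 30, against 14.7%. After replicate 1 alone lay below both before libraries for 17 of the 30 genes and above both for 1, Pou2f2, against 35% and 34.5% of all genes. The 15 genes were Bank1, Blk, Btla, Cd37, Cd40, Cd79b, Fcer2, Fcrla, Ikzf3, Irf4, Ms4a1, Mzb1, Pou2af1, Spib and Tnfrsf13b. Btla, Irf4, Ms4a1 and Mzb1 were without overlap in both models, upwards with AngII and downwards with DOCA–HS. The share of all genes that did so was not counted, so this overlap of the lists is a description only. In DOCA–HS after replicate 2 these genes had 0, 2, 2 and 1 counts, all under its limit of 3 counts. The 95% Poisson intervals of the Irf4 and Mzb1 counts reached the level of the other DOCA–HS libraries, so that their separation was not resolved at this depth, while those of Btla and Ms4a1 lay below it. In after replicate 1 Mzb1 lay only just below the lower before library (0.923 against 0.956 CPM). In AngII, Mzb1 met the filter on low counts only through its after libraries, where it was higher. The 2 models share no library, but they differ in the weeks spent on the model as well as in the model itself.

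The difference between the models in the change (DOCA–HS minus AngII) was tested in a fit over all 8 libraries. All 30 genes tested had a difference below 0, with a median of -1.03 and a range of -3.17 to -0.20. Over the 7994 genes tested, the median was -0.12 and 44.5% lay above 0. Cxcr5, Ms4a1, Spib and Tnfrsf13b passed downwards and none upwards, against 0.913% of all genes downwards and 2.25% upwards. The adjusted p of the 30 genes ranged from 0.881 to 0.979.

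In that fit the difference was -3.17 (SE 1.11) for Tnfrsf13b, -2.54 (SE 1.02) for Cxcr5, -1.78 (SE 0.75) for Ms4a1 and -1.74 (SE 0.76) for Spib, each with an adjusted p of 0.881. Tnfrsf13b was at 0.314 and 0.507 CPM in the AngII before libraries and at 0.480 and 1.48 CPM after CMG, so that in AngII the groups overlapped. These values came from 4 and 3 counts before and 3 and 20 after CMG, too few for a test within AngII. In DOCA–HS Cxcr5 was at 2.10 and 1.27 CPM before and at 1.69 and 0 CPM after CMG, also with overlap. Leaving out DOCA–HS after replicate 2 gave differences of -2.96 for Tnfrsf13b and -2.22 for Cxcr5, beyond 1.5 in size. Those of Ms4a1 (-1.26) and Spib (-1.23) fell short of it. The median of all members was then -0.74, and without AngII after replicate 2 it was -0.70. Without DOCA–HS after replicate 1 it was -2.37, against -0.50 over all genes tested. Without each of the remaining libraries it lay between -1.28 and -0.70.

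Among the genes of the antigen receptor and its signalling, Cd79b, the signalling chain of the receptor, was at 17.1 and 29.7 CPM in AngII before and 21.1 and 37.1 CPM in AngII after. In the DOCA–HS model it was at 47.4 and 40.7 CPM before and 28.2 and 22.5 CPM after CMG. The AngII groups overlapped, and the DOCA–HS groups did not. The log2 fold change of Cd79b was 0.35 (SE 0.40) in AngII and -0.78 (SE 0.46) in DOCA–HS, where it was -0.63 without after replicate 2.

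Blk, a Src family kinase of the receptor, was at 3.77 and 3.89 CPM before and 1.12 and 4.07 CPM after CMG in the AngII model, and at 4.27 and 2.87 CPM before and 2.31 and 0 CPM after CMG in DOCA–HS. Blnk, the adaptor that links the receptor to phospholipase C, was at 2.67 and 4.05 CPM before and 3.999 and 5.77 CPM after CMG in AngII, and at 5.76 and 3.82 CPM before and 3.998 and 2.81 CPM after CMG in DOCA–HS. Groups of Blnk overlapped in both models, and those of Blk in AngII only. Plcg2, the phospholipase itself, was at 8.72 and 12.2 CPM before and 13.4 and 19.2 CPM after CMG in AngII, without overlap, and at 17.7, 12.9, 16.8 and 11.95 CPM in the same order in DOCA–HS, with overlap. Bank1, a scaffold of the receptor, was at 5.35 and 5.41 CPM before and 3.84 and 9.91 CPM after CMG in AngII, and at 9.14, 7.54, 6.61 and 6.33 CPM in DOCA–HS. Of these 5 genes, 4 lay above 0 in AngII (median 0.41) and 0 in DOCA–HS (median -0.40), and none passed. The DOCA–HS median was -0.33 without after replicate 2, and Plcg2 lay above 0, at 0.14.

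Of the surface co-receptors and inhibitory receptors, all 7 tested lay above 0 in AngII (median 0.48) and all 7 below 0 in DOCA–HS (median -0.66). Without DOCA–HS after replicate 2 the median was -0.34, 6 of the 7 lay below 0 and Cd22 lay above it, at 0.22. Ms4a1 encodes CD20, a membrane protein of mature B cells that plasma cells lack. It was at 8.72 and 7.77 CPM before and 11.7 and 13.4 CPM after CMG in AngII, and at 17.7 and 12.5 CPM before and 9.61 and 1.41 CPM after CMG in DOCA–HS. The groups of Ms4a1 did not overlap in either model, and the direction was opposite. Its log2 fold change was 0.62 (SE 0.29) in AngII and -1.21 (SE 0.65) in DOCA–HS, or -0.65 without DOCA–HS after replicate 2, and it passed in neither.

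Fcer2, the low-affinity IgE receptor (CD23) of mature B cells, was at 5.90 and 13.0 CPM before and 6.72 and 17.01 CPM after CMG in AngII, and at 18.2 and 14.98 CPM before and 10.8 and 1.41 CPM after CMG in DOCA–HS. Cr2, the complement receptor CD21, was at 3.07 and 4.22 CPM before and 3.84 and 5.84 CPM after CMG in AngII, and at 8.20, 5.10, 5.30 and 1.41 CPM in DOCA–HS. In AngII, replicate 2 had the higher value of both genes at both times. Cd22 in DOCA–HS was at 14.8 and 10.6 CPM before and 14.8 and 1.41 CPM after CMG, so that after replicate 1 lay at the level of the higher before library. The DOCA–HS log2 fold changes of Fcer2 and Cr2 were -1.20 and -0.71, and -0.61 and -0.34 without after replicate 2. Btla, an inhibitory receptor that T cells carry too, was at 1.65 and 0.507 CPM before and 1.76 and 3.18 CPM after CMG in AngII, and at 3.93, 3.82, 3.23 and 0 CPM in DOCA–HS, where its log2 fold change was -0.66, or -0.25 without after replicate 2. The remaining Cd72 and Cd37 had log2 fold changes of 0.19 and 0.02 in AngII and of -0.48 and -0.34 in DOCA–HS, or -0.54 and -0.32 without after replicate 2.

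**Figure D2:**
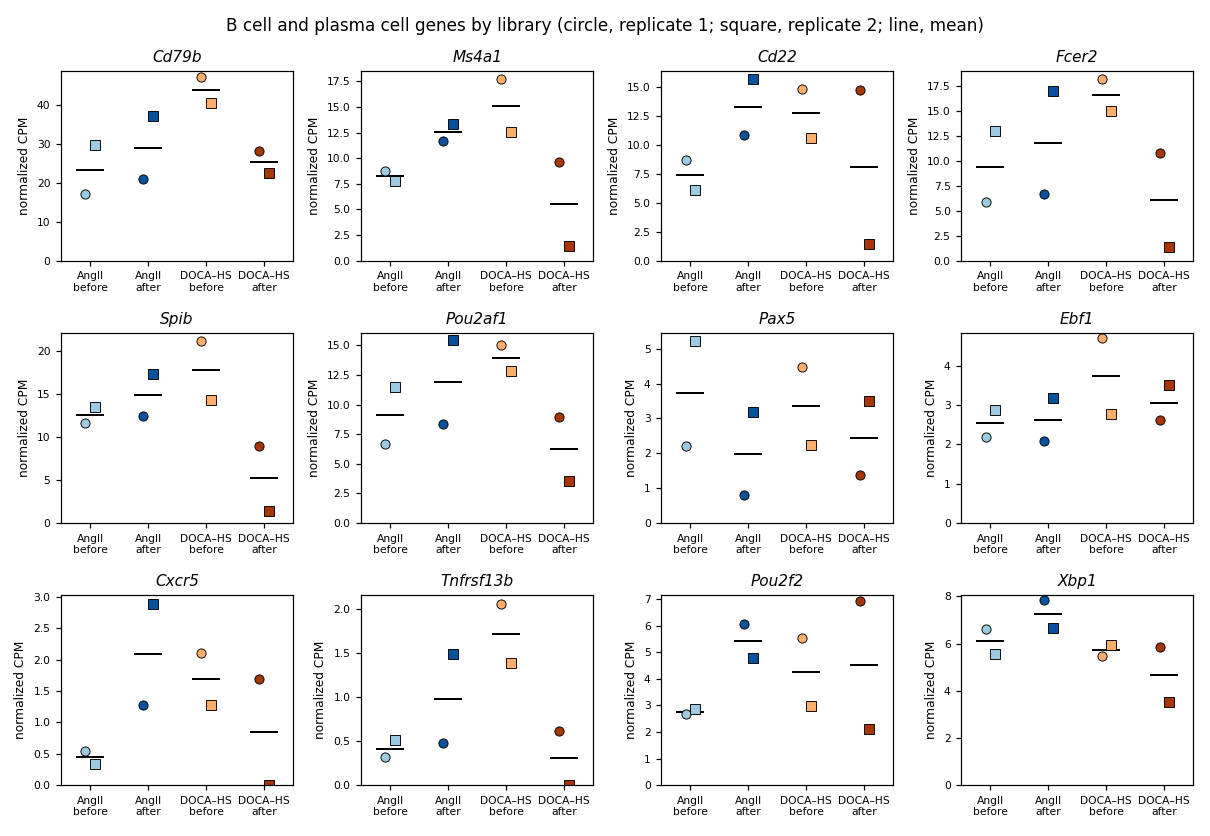
Normalized CPM of 12 of the genes in every library (circles, replicate 1; squares, replicate 2; lines, group means), each panel on its own linear axis from 0. In AngII the after points of Ms4a1, Cd22, Cxcr5 and Pou2f2 lie above both before points, and DOCA–HS after replicate 2 is the lowest DOCA–HS point of every panel except those of Pax5 and Ebf1.

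Of 10 transcription regulators tested, 8 lay above 0 in AngII (median 0.21) and 1 in DOCA–HS (median -0.70), and 1 passed, Spib in DOCA–HS. Leaving out DOCA–HS after replicate 2 gave a median of -0.47, with 1 of 10 above 0 and none passing. Pax5, the factor that fixes B cell identity, was at 2.20 and 5.24 CPM before and 0.800 and 3.18 CPM after CMG in AngII, and at 4.49 and 2.23 CPM before and 1.38 and 3.52 CPM after CMG in DOCA–HS. Groups of Pax5 overlapped in both models, and its log2 fold change was -0.68 (SE 0.61) in AngII and -0.89 (SE 0.64) in DOCA–HS. The DOCA–HS value moved with single libraries, to -1.31 (unadjusted p = 0.0055 and adjusted p = 0.165 in edgeR's quasi-likelihood test) without after replicate 2, to -0.08 without before replicate 1 and to 0.01 without after replicate 1. Ebf1, which acts with Pax5, was at 2.20, 2.87, 2.08 and 3.18 CPM in AngII and at 4.71, 2.76, 2.61 and 3.52 CPM in DOCA–HS, before and then after CMG. Its values also overlapped in both models, with log2 fold changes of 0.14 (SE 0.39) and -0.41 (SE 0.52), the latter -0.54 without DOCA–HS after replicate 2.

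Pou2f2 differed from the other regulators in DOCA–HS, where it alone lay above 0, at 5.54 and 2.97 CPM before and 6.92 and 2.11 CPM after CMG (log2 fold change 0.30, SE 0.58, or 0.67 without after replicate 2). Its after libraries enclosed its before libraries, and this difference from the other genes was not tested. Pou2af1, its partner, was at 6.68 and 11.5 CPM before and 8.32 and 15.5 CPM after CMG in AngII, with overlap. Spib in AngII was at 11.6 and 13.5 CPM before and 12.5 and 17.3 CPM after CMG, with a log2 fold change of 0.28 (SE 0.31). Irf8, a factor of B cells, monocytes and dendritic cells, was at 8.72 and 8.11 CPM before and 9.44 and 8.87 CPM after CMG in AngII, and at 12.3, 7.86, 9.15 and 2.11 CPM in DOCA–HS (log2 fold change -0.62, or -0.14 without after replicate 2). Bach2, Ikzf3 and Bcl11a had log2 fold changes of -0.07 to 0.46 in AngII and of -1.01 to -0.63 in DOCA–HS. They had 0, 0 and 1 counts in DOCA–HS after replicate 2, and without it the DOCA–HS values were -0.34, -0.52 and -0.43.

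The plasma cell genes had low counts. Irf4, which plasma cells and activated lymphocytes need, was at 1.81 and 0.676 CPM before and 2.24 and 3.18 CPM after CMG in AngII, and at 2.88 and 2.66 CPM before and 2.08 and 1.41 CPM after CMG in DOCA–HS. Its groups did not overlap in either model, and its log2 fold change was 1.04 (SE 0.51) in AngII and -0.52 (SE 0.50) in DOCA–HS, or -0.41 without DOCA–HS after replicate 2, where it had 2 counts. Mzb1, a chaperone of antibody assembly, was at 0.943 and 0.845 CPM before and 1.28 and 1.55 CPM after CMG in AngII, and at 1.55, 0.956, 0.923 and 0.703 CPM in DOCA–HS. Its largest count in any library was 28, and its DOCA–HS log2 fold change was -0.54, or -0.48 without after replicate 2.

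Xbp1, the regulator of the secretory apparatus, was at 6.60 and 5.57 CPM before and 7.84 and 6.66 CPM after CMG in AngII, and at 5.48, 5.95, 5.84 and 3.52 CPM in DOCA–HS. Its log2 fold changes were 0.25 (SE 0.30) and -0.17 (SE 0.46), the latter 0.05 without DOCA–HS after replicate 2, and many other cells express it. Tnfrsf17 (BCMA), the receptor that marks plasma cells, had 0 to 4 counts in every library, which is near the limit of 3 counts. Reads on Xbp1 made up 45.6% to 71.7% of the summed counts of the plasma cell genes, and these counts do not show whether plasma cells were present.

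Among the remaining genes, Fcrla, Swap70 and Ralgps2 had log2 fold changes of 0.05, 0.82 and 0.26 in AngII and of -1.14, -0.31 and -0.11 in DOCA–HS. The latter were, without DOCA–HS after replicate 2, -0.69, 0.01 and 0.27, so that Swap70 and Ralgps2 no longer lay below 0. Cd40, the receptor through which T cells help B cells, had 0.07 in AngII and -0.51 in DOCA–HS, or -0.18 without DOCA–HS after replicate 2. Ltb, a lymphotoxin chain, had 22, 0, 0 and 4 counts in the AngII libraries and at most 2 in any DOCA–HS library. Its 22 counts came from AngII before replicate 1 alone.

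Over both models the average change of the genes was near 0. None of the 30 genes passed in either direction, where 0.163% of all genes passed upwards and 0.163% downwards, and 0 of them had an unadjusted p of at most 0.05. DESeq2 also called 0. The median was -0.16, with 12 genes above and 18 below 0. Pou2f2 (0.64), Pax5 (-0.80) and Blk (-0.69) had the smallest p-values, with an adjusted p of 1.00 in edgeR's quasi-likelihood test.

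Between the models over both states, DOCA–HS against AngII, none of the 30 genes passed either, by edgeR or DESeq2, where 0.0625% of all genes passed upwards and 0.175% downwards, and 0 had an unadjusted p of at most 0.05. The median was 0.18, with 22 genes above 0. Btla (0.84), Bcl11a (0.55) and Ebf1 (0.37) had the smallest p-values, with an adjusted p of 1. Bcl11a, a zinc finger factor of early lymphoid cells, was at 1.73, 1.18, 1.60 and 1.63 CPM in AngII and at 3.77, 1.59, 2.08 and 0.703 CPM in DOCA–HS. The DOCA–HS values spread from below to above all AngII values.

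The B lineage genes were also set against other blood cells within each library, which needs no scaling between libraries. Their summed counts per 100 counts of pan-leukocyte genes were 4.71 and 6.10 before and 4.71 and 9.45 after CMG in AngII, and 11.2 and 7.94 before and 6.52 and 2.06 after CMG in DOCA–HS. The groups overlapped in AngII and did not in DOCA–HS. Cd52 alone gave 67.9% of the pan-leukocyte counts in DOCA–HS after replicate 2, against 21.0% to 45.4% in the other libraries. Without Cd52, a choice made after seeing the data, the values were 7.88, 10.3, 8.63 and 12.5 in AngII and 14.1, 10.6, 9.61 and 6.42 in DOCA–HS, which left the AngII groups overlapping and the DOCA–HS groups apart. Per 100 counts of T cell markers they were 24.5 and 31.6 before and 37.1 and 50.1 after CMG in AngII, without overlap, and 48.5 and 38.3 before and 39.5 and 22.2 after CMG in DOCA–HS, with overlap. Per 100 counts of cytotoxic lymphocyte markers they were 116 and 164 before and 79.8 and 149 after CMG in AngII, with overlap, and 334 and 180 before and 152 and 49.01 after CMG in DOCA–HS, without.

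Per 100 counts of monocyte markers, B lineage counts were 17.02 and 25.1 before and 15.2 and 26.1 after CMG in AngII, with overlap, and 34.9 and 17.5 before and 15.01 and 12.2 after CMG in DOCA–HS, without. Against neutrophil markers they were 27.7, 42.0, 32.0 and 62.7 in AngII and 122, 28.8, 48.3 and 10.2 in DOCA–HS, with overlap in both. DOCA–HS before replicate 1 had the highest ratio of all libraries to pan-leukocyte, cytotoxic lymphocyte, monocyte and neutrophil counts. Whether the groups overlapped thus varied with the cell type set beneath the B lineage genes. In DOCA–HS both after libraries lay below both before libraries against 3 of the 5 lists, and with 2 libraries a group an exact permutation test of a ratio (two-sided) cannot go below 0.333.

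**Figure D3:**
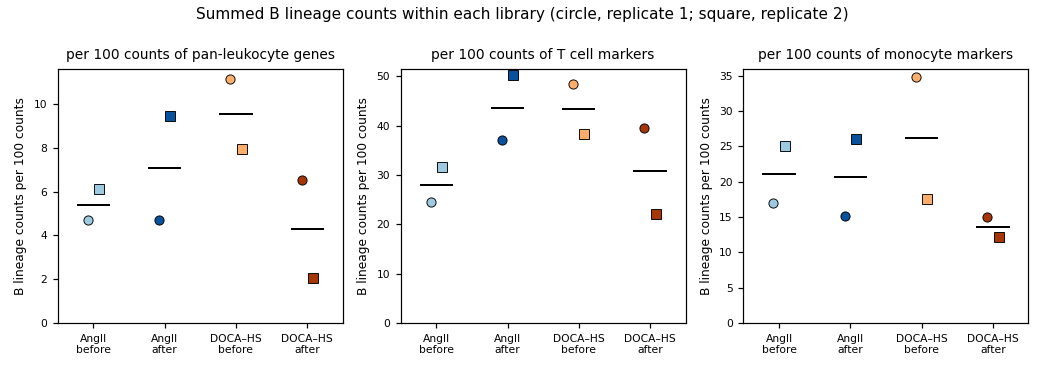
Summed counts of the 14 B lineage genes per 100 counts of pan-leukocyte genes, T cell markers and monocyte markers in each library (circles, replicate 1; squares, replicate 2; lines, group means; linear axes from 0). The DOCA–HS after points lie below both before points against pan-leukocyte and monocyte counts, and the AngII after points lie above both before points against T cell counts only.

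Markers of other cells moved beside these genes, and their part in the results was not tested. Of 16 T cell markers tested, 4 lay above 0 in AngII (median -0.16) and 1 in DOCA–HS (median -0.36, or -0.51 without after replicate 2), with 0 past the criterion. Summed T cell markers were at 308 and 338 CPM before and 227 and 286 CPM after CMG in AngII, and at 347 and 331 CPM before and 263 and 235 CPM after CMG in DOCA–HS, without overlap in either. In DOCA–HS after replicate 2, 3 of the 16 were at 0. Among 10 erythroid markers, 0 lay above 0 in AngII (median -0.60) and 7 in DOCA–HS (median 0.36), which turned to 2 (median -0.47) without DOCA–HS after replicate 2.

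Of 10 monocyte markers, 9 lay above 0 in AngII (median 0.81; Clec4a3 passed at 1.65) and 7 in DOCA–HS (median 0.37, or 0.59 without after replicate 2). Of 5 platelet markers, 0 lay above 0 in AngII and all 5 in DOCA–HS (median 1.26; Pf4 passed at 1.72 and Treml1 at 1.92). Their DOCA–HS median without after replicate 2 was 1.23, and Pf4 (1.32) and Treml1 (0.88) fell short of the threshold. Plasmacytoid dendritic cell markers, which matter for Spib, Irf8 and Bcl11a, had medians of 0.20 in AngII, where Runx2 passed at 2.21, and 0.63 in DOCA–HS over 6 genes (0.39 over 8 without after replicate 2). In DOCA–HS, where Spib lay below 0, 5 of the 6 dendritic cell markers lay above it. Cytotoxic lymphocyte markers had medians of 0.87 in AngII and 0.53 in DOCA–HS over 9 genes (0.30 without DOCA–HS after replicate 2), with Gzma passing in both models (1.59 and 1.89, the latter 1.76 without that library) and Klrb1a in AngII (1.77). Neutrophil markers had medians of -0.26 and -0.30 over 11 genes (-0.92 in DOCA–HS without after replicate 2), with Lcn2 (-4.02) and Ngp (-3.27) passing downwards in DOCA–HS, at -7.24 and -4.42 without that library.

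DOCA–HS after replicate 2 was set beside the other 3 DOCA–HS libraries with their counts scaled to its depth, a comparison chosen after seeing the data. Depth here is the library size times its TMM factor. That factor was 0.343 in DOCA–HS after replicate 2 and 1.15 to 1.88 in the other 3, and the scaled counts depend on it. The 30 genes summed to 169 counts in DOCA–HS after replicate 2, against 467 and 356 scaled counts in the before libraries and 320 in after replicate 1. For 11 of the 30 genes (36.7%) the 95% Poisson interval of its count lay below all 3 scaled counts, and for 0 above, against 9.86% of all genes below and 14.9% above. The interval covers counting error only. The 11 genes were Bach2, Btla, Cd22, Cr2, Fcer2, Fcrla, Ikzf3, Irf8, Ms4a1, Pou2af1 and Spib.

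In this library Ms4a1 had 2 counts where 13.7 to 25.2 stood for its depth, Fcer2 2 against 15.4 to 25.9, Cd22 2 against 15.1 to 21.0 and Spib 2 against 12.8 to 30.02. Cd79b by contrast had 32 counts against 40.1 to 67.4, Cd37, a tetraspanin that B cells share with other leukocytes, 52 against 52.5 to 66.4, Bank1 9 against 9.40 to 13.0 and Pax5 5 against 1.97 to 6.38. As a share of the 74 B lineage counts in this library, Cd79b made up 43.2% (exact binomial 95% interval 31.8% to 55.3%), against 22.6% to 32.1% in the other 7 libraries. Ms4a1 made up 2.70% (0.329% to 9.42%), against 7.29% to 13.9%, and Pax5 6.76% (2.23% to 15.1%), against 0.949% to 4.91%. These genes were chosen after their values were seen, and each of the 3 intervals reached the range of the other libraries, so that 74 counts do not resolve whether the proportions differed.

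**Figure D4:**
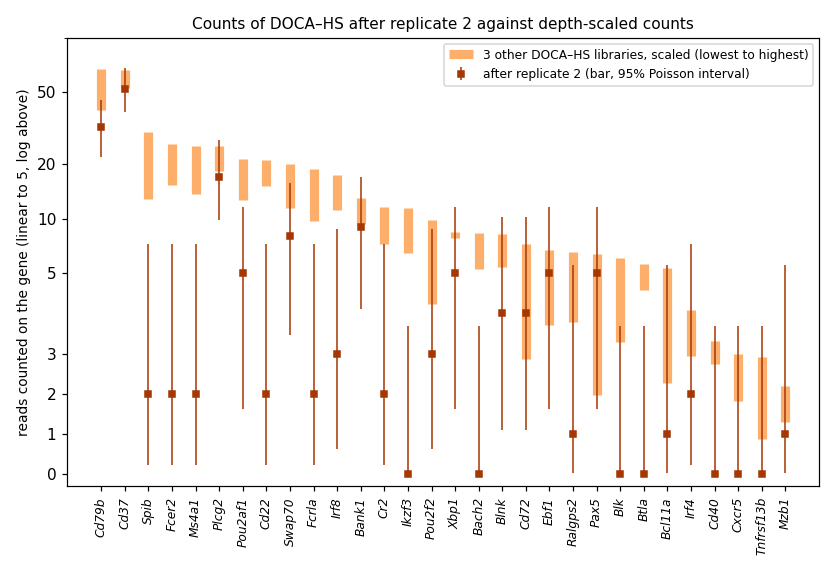
Reads counted on each of the 30 tested genes in DOCA–HS after replicate 2 (squares, with 95% Poisson intervals) beside the range of the other 3 DOCA–HS libraries (orange bars), on an axis linear to 5 and logarithmic above. The other libraries were scaled to its depth, taken as library size times TMM factor. The squares of Spib, Fcer2, Ms4a1 and Cd22 stand at 2 counts with intervals below the orange bars, and the intervals of Cd37, Bank1, Pax5 and Ebf1 reach the bars.

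Further genes of the B cell receptor pathway, shared with other leukocytes and not among the 37, were set beside them. Of 28 tested, 21 lay above 0 in AngII (median 0.23) and 6 in DOCA–HS (median -0.29). Without DOCA–HS after replicate 2, 19 of the 28 lay above 0, with a median of 0.08, while 24 of the 30 B cell and plasma cell genes lay below 0. Sh3bp2, an adaptor of Syk kinase signalling, passed in AngII (log2 fold change 1.51, SE 0.30, adjusted p = 0.590), and its difference between the models was -1.54 (SE 0.53, adjusted p = 0.881). Further genes of the plasma cell secretory apparatus had a median of -0.17 over 12 genes in AngII and 0.16 over 13 in DOCA–HS, or 0.26 over 14 without DOCA–HS after replicate 2. Ssr4, a subunit of the translocon-associated protein complex, passed in the difference between the models (1.54, SE 0.62, adjusted p = 0.881).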

How the data were processed

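Whole blood of the AngII and DOCA–HS models was measured by RNA sequencing in 8 libraries, 2 in each group, with blood taken by cardiac puncture into heparin per the labels. The authors aligned single-end reads to rn6 with HISAT2, counted them on genes with HTSeq on the reverse strand, and deposited unnormalized counts for each gene and library (0 further columns of values). The labels and the methods name different forms of the library kit, and the hemoglobin genes that the methods state as removed were still among the counts. Replicate libraries were compared by a chi-square test of their deposited counts over genes, which gave 15.4 to 94.6 per degree of freedom in the 4 groups, well above the value of counting error alone.

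The genes and the lists of further markers were chosen with earlier results of these data known. Counts were fitted with edgeR 4.0.16 in R 4.3.3 (filterByExpr, TMM normalization, estimateDisp, glmQLFit, glmQLFTest). After against before CMG was fitted within each model on its own 4 libraries. The difference between the models in the change came from a fit of the 4 groups together, and an additive fit gave the average change and the difference between the models. Benjamini-Hochberg adjustment ran over all genes tested. The thresholds were those of the study, 1.5 on the log2 scale in either direction together with an unadjusted p of at most 0.05, and normalized CPM used the TMM factors. Levels are not compared between genes, as no transcript lengths were at hand.

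Genes named with a value in every library were those of the antigen receptor, 11 others set by name, every gene that passed in any comparison and the 3 with the smallest p in each. Other genes are given by ranges and counts. The alternatives were DESeq2 1.42.0, its size factors, 3 further scalings, 2 filters, the replicate block, 1 fit of all libraries and each library left out. A scaling without Cd52 and summaries of the DOCA–HS model without DOCA–HS after replicate 2 were added after seeing the data. The fits were tested on simulated counts. A planned description of signalling motifs in the protein sequences was not made.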

Additional observations from a re-analysis of the deposited data

Results flagged for a closer look

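For 4 of the 30 genes tested, the change after CMG differed between the models in the fit of the difference itself (DOCA–HS minus AngII), with an unadjusted p of at most 0.05 and a size beyond 1.5 on the log2 scale, and none had an adjusted p below 0.881 in edgeR's quasi-likelihood test. The difference was -3.17 for Tnfrsf13b (unadjusted p = 0.0162), -2.54 for Cxcr5 (0.0313), -1.78 for Ms4a1 (0.0382) and -1.74 for Spib (0.0425). Over all genes, 0.913% passed in this direction. Tnfrsf13b had too few counts in AngII to be tested there. DOCA–HS after replicate 2 had 0 counts of Tnfrsf13b and Cxcr5 and 2 counts each of Ms4a1 and Spib. Without this library the differences of Tnfrsf13b and Cxcr5 stayed beyond 1.5 in size, and those of Ms4a1 and Spib fell short of it.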

How the results depend on the processing

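The median log2 fold change of the genes stayed above 0 in AngII, and below 0 in DOCA–HS and in the difference between the models, under every alternative, including each library left out. With 1 library left out, the lone library of its group is assumed to vary like the others. The medians then ranged from 0.10 to 0.65 in AngII, from -2.12 to -0.34 in DOCA–HS and from -2.37 to -0.70 in the difference. The lowest medians in DOCA–HS and in the difference came without DOCA–HS after replicate 1, where those of all genes were -0.37 and -0.50. Far more of all genes passed downwards in these 2 fits than in the main fits, and they gave the highest downward counts below. The highest counts in AngII also came from fits in which more of all genes passed in the same direction. Genes passing upwards in AngII ranged from 0 to 3 and downwards from 0 to 2, those passing downwards from 0 to 16 in DOCA–HS and from 0 to 15 in the difference. In the average change 0 to 1 passed downwards (Ltb), and between the models 0 to 1 in each direction.

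Scaling to total counts moved the median of all genes to 0.36 in AngII, -0.76 in DOCA–HS and -1.21 in the difference, and that of the members to 0.83, -1.27 and -2.13, with 2 genes passing upwards, 0 downwards and 1 downwards. Of all genes, 210 of 7201, 9 of 7720 and 30 of 7994 passed in these directions. Without the hemoglobin counts in the total, the medians of all genes were 0.38, -0.41 and -0.89 and those of the members 0.84, -0.92 and -1.85, with 2, 0 and 7 genes passing. Of all genes, 225 of 7201 then passed upwards in AngII, and 12 of 7720 in DOCA–HS and 150 of 7994 in the difference downwards. Scaling to pan-leukocyte genes moved the median of all genes to -0.30 in DOCA–HS and -0.39 in the difference, with 0 and 2 genes passing downwards. Of all genes, 23 of 7720 and 87 of 7994 passed downwards there. With Cd52 left out of these genes, a choice made after seeing the data, the median of all genes was 0.23 in DOCA–HS and 0.24 in the difference, that of the members -0.37 and -0.66, and 0 and 2 genes passed downwards. Of all genes, 11 of 7720 and 24 of 7994 did so. Relative to all genes the members' median was 0.42 in AngII, -0.55 in DOCA–HS and -0.92 in the difference, and over the first 3 scalings 0.46 to 0.47, -0.51 in each, and -0.92 to -0.96. DESeq2 called the genes that edgeR called in these comparisons, and with its size factors within edgeR 0 passed in DOCA–HS. With 1 fit of all libraries, Tnfrsf13b passed in DOCA–HS in place of Spib. The cause of these changes was not tested.

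Without a filter on low counts, Ltb passed downwards in AngII (1 gene), in the average change (1) and between the models (1), 2 genes passed in DOCA–HS and 7 in the difference. Of all genes, 67 of 11196 passed downwards in AngII and 43 of 11208 in DOCA–HS. In the difference 144 of 11692 did so, in the average change 37 of 11692 and between the models 49 of 11692. With at least 10 counts in every library, 0 passed in AngII among 21 genes left. That filter left 3 genes in DOCA–HS, where 0 passed, and 3 in the difference, where 1 passed downwards (Cd79b). Of all genes, 10 of 2624 passed downwards in the difference under this filter. Depth thus limits most of these genes in DOCA–HS after replicate 2.

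With the replicate number as a block, 1 gene passed upwards in AngII (Cxcr5), 3 downwards in DOCA–HS (Fcer2, Ms4a1, Spib) and 9 in the difference. Of all genes, 82 of 7201 then passed upwards in AngII, and 25 of 7720 in DOCA–HS and 125 of 7994 in the difference downwards. Libraries with the same number deviated together (correlation of deviations 0.50 in AngII and 0.30 in DOCA–HS), but with 2 pairs per model they share only a number.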
